A study of Mus musculus with 13 samples.

Results

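Polycomb repressive complexes are chromatin complexes that keep genes silent by modifying histones. RNA levels of 10 of their subunits were followed in mouse embryonic stem (ES) cells: the PRC2 core subunits Ezh2, Ezh1, Eed and Suz12, the PRC2 accessory subunits Jarid2 and Mtf2, the PRC1 ubiquitin ligases Rnf2 and Ring1, and the PRC1 accessory subunits Kdm2b and Pcgf6. They were taken from a list of gene names, and all 10 were found by their symbols among the 26797 genes of the replicate libraries and by the same Ensembl identifiers among the 49671 genes of a joint count table. The study asked how methylated promoters are silenced and sequenced poly(A) RNA of WT ES cells of the line AinV15 (3 libraries) and of Dnmt1-/- ES cells, labelled as a D1-null strain with the C allele (3 libraries). It also sequenced AinV15 cells that expressed either dCas9-OGA or dCas9-OGA-D242A (1 library each). dCas9-OGA joins a DNA-binding Cas9 without nuclease activity to OGA, the enzyme that removes O-GlcNAc from proteins, and D242A is the mutant of OGA without that activity. Both fusions were expressed with 4 sgRNAs to IAP retrotransposons from a cassette exchanged into AinV15, which carries the doxycycline-dependent activator rtTA at the ROSA26 locus, and were induced with 1 µg/mL doxycycline for 48 h. The joint table adds 1 WT and 1 Dnmt1-/- library that the labels tie to no replicate. The WT cells and the Dnmt1-/- cells are different ES lines, so genotype and line cannot be told apart, and no source used here says that the 3 libraries of a group came from separate cultures, so p-values measure the spread between these libraries only.

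PRC2 methylates lysine 27 of histone H3 (H3K27me3) through EZH2 or EZH1, which work only together with EED and SUZ12. PRC1 ubiquitinates histone H2A through RNF2 (RING1B) or RING1 (RING1A), and a set of alternative PCGF and accessory subunits, KDM2B and PCGF6 among them, gives it different targets. In ES cells both complexes sit mostly at CpG-rich promoters that lack DNA methylation, and they hold developmental regulators silent.

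The promoters of the PRC2 core genes are shown first because CpG dinucleotides are dense in some of them and sparser in others. CpG dinucleotides are the sites where DNMT1 can maintain methylation, and whether those shown are methylated is not known from these data. Each window is the RefSeq sequence of GRCm38.p6 on the strand of the gene, with the CpG dinucleotides in capitals: Ezh2 at chr6:47594981-47595280 (minus strand), Eed at chr7:89980927-89981226 (minus strand), Suz12 at chr11:79992856-79993155 (plus strand) and Ezh1 at chr11:101226414-101226713 (minus strand).
Ezh2: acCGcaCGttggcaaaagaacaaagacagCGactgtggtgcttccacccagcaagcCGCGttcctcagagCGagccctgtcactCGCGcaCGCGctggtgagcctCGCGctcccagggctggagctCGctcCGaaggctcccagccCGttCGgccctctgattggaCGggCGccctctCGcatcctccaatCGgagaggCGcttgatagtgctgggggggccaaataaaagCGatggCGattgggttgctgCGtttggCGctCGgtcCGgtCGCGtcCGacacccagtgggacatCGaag
Eed: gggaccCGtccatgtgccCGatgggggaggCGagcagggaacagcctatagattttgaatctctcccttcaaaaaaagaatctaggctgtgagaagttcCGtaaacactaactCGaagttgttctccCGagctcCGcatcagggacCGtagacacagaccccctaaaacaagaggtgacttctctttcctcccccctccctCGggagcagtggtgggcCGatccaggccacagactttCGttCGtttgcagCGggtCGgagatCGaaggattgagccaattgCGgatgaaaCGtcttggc
Suz12: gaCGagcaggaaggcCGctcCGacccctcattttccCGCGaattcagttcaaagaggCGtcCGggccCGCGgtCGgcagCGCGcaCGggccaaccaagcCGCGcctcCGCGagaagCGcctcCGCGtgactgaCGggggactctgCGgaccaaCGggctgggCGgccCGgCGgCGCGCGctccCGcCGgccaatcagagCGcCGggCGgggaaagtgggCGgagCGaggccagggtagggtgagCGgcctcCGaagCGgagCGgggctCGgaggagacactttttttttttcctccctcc
Ezh1: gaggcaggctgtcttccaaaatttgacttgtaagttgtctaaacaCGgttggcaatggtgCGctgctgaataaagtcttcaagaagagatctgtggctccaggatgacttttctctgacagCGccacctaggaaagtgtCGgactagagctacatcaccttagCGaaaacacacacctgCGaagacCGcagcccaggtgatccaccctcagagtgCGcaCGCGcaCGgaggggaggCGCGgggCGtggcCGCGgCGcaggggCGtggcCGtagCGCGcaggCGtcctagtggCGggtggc
Each window runs from 250 bases before the transcription start to 50 bases after it. The Suz12 window holds 41 CpG, more than 96.5% of the 32851 promoter windows of this length, and the Ezh2 window holds 31. The windows of Ezh1 and Eed hold 23 and 17 CpG, and the median window in the genome holds 7. The 10 genes have 15 windows in all, which hold at least 17 CpG each apart from a second Mtf2 window, which holds 2. The densest are Kdm2b windows with 49 and 47 CpG, beside others of that gene with 28 and 18, and the Ring1 window holds 37. Of 4 spellings of the E2F-type motif, TTTCCCGC, TTTGGCGC, TTTCGCGC and TTTGCCGC, searched on both strands, the Suz12 window holds TTTCCCGC from base 32 and the Ezh2 window holds TTTGGCGC from base 254. No other window of the 10 genes holds any of them, and 2.26% of all windows do. DNA methylation and factor binding at these windows were not analysed here.

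The replicate libraries held between 26846275 and 37112247 reads on genes, recovered from the deposited signal, and the single libraries between 18693531 and 25097983. Dnmt1 itself had a signal of 308 to 352 in WT and 73.6 to 77.6 in Dnmt1-/- libraries, and 460.2 cpm in the single WT against 61.9 cpm in the single Dnmt1-/- library, so that the WT and Dnmt1-/- libraries matched their labels. Of 7 ES cell markers listed, 6 were tested, and their summed signal was 3207 to 3312 in WT and 3022 to 3120.2 in Dnmt1-/- libraries. At an adjusted p below 0.05 by limma 1 of them was higher and 3 were lower, beside 35.8% and 35.4% of all genes tested. Esrrb had the largest log2 fold change among these, −0.45. In the single libraries the 7 markers summed to between 3585 and 4782 cpm. The 7 fibroblast markers were all lower in Dnmt1-/- libraries, with a summed signal of 1271 to 1807 in WT and 293 to 325 in Dnmt1-/- libraries, and of 37.5 to 81.4 cpm in the single libraries. Postn, Col5a2, Col1a2 and Col3a1 had the largest log2 fold changes among them, from −2.82 for Postn and Col5a2 to −2.33 for Col3a1. The summed signal of 6 primitive endoderm markers was 141 to 143 in WT and 199 to 207 in Dnmt1-/- libraries, and that of 6 markers of the 2-cell-like state was 266 to 284 and 113 to 131. In the single libraries both sums were highest in WT, at 51.1 cpm against 17.6 to 38.1 cpm for primitive endoderm and 26.6 cpm against 0.36 to 1.33 cpm for the 2-cell-like state. In bulk RNA a change in the share of a cell type and a change in RNA per cell cannot be told apart, and the part of these markers in the values below was not tested.

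Suz12 stood apart among the subunits. Its normalized signal was 159, 140.1 and 174 in the 3 WT libraries and 423, 417 and 432 in the 3 Dnmt1-/- libraries. Every Dnmt1-/- library lay far above every WT library, and WT replicate 2 was the lowest of all 6. SUZ12 is the scaffold that holds PRC2 together, and its RNA was 2.70-fold higher in the Dnmt1-/- libraries. The log2 fold change was 1.43 (SE 0.06, adjusted p = 2.3e-16 by limma across all genes tested, n = 3 per group). The single libraries, normalized apart, stood at 393 cpm in WT, 442 cpm in dCas9-OGA-D242A and 234 cpm in dCas9-OGA, against 668 cpm in Dnmt1-/-. Replicate and single WT libraries thus lay far apart, and the part of this in the fold change was not tested.

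**Figure D1:**
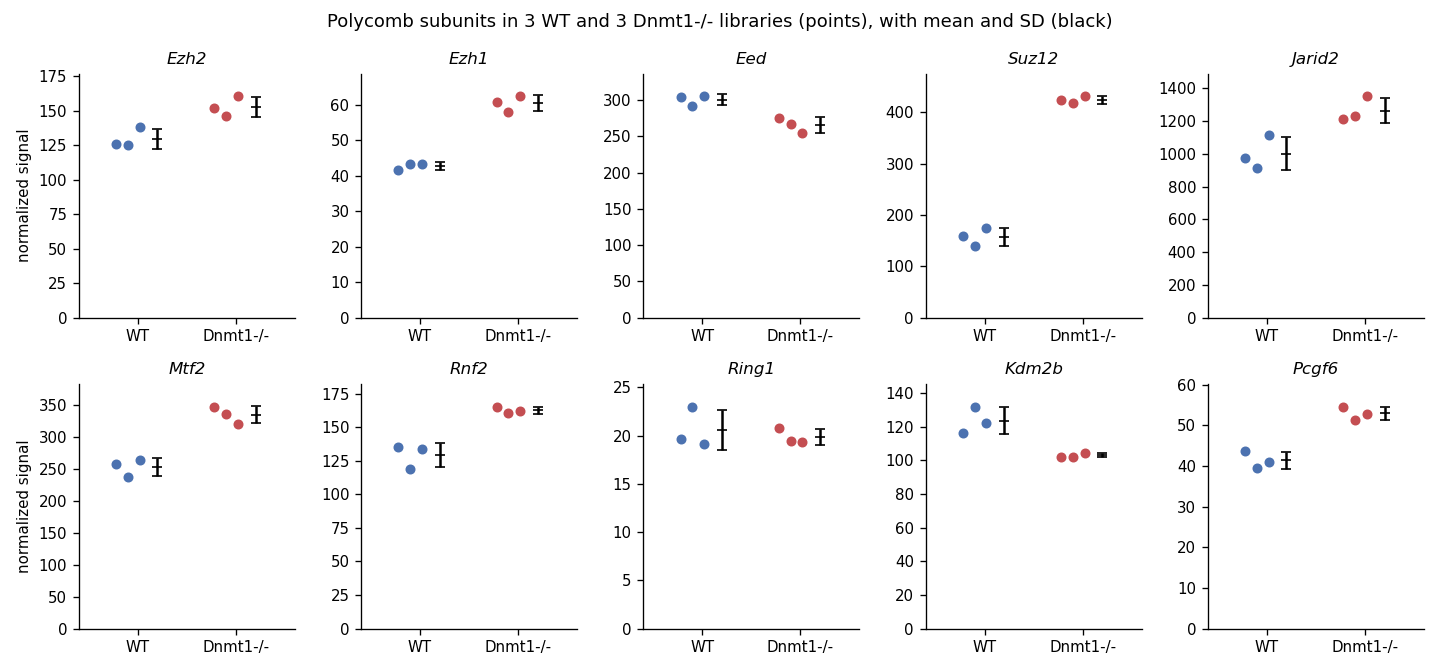
Normalized signal of each of the 10 subunits on a linear axis from 0, with 1 point per library for WT (blue) and Dnmt1-/- (red) and the mean with its SD in black (n = 3). The Dnmt1-/- points of Suz12 lie between 417 and 432, above all WT points, and Ring1 is the only panel in which both groups overlap.

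The other core subunits moved less and not in 1 direction. Ezh2, the main H3K27 methyltransferase of dividing cells, had a signal of 126, 125 and 138 in WT and of 152, 146 and 161 in Dnmt1-/- libraries. The groups did not overlap, and WT replicate 3 came closest to the Dnmt1-/- libraries. The log2 fold change was 0.24 (SE 0.05, adjusted p = 0.0003 by limma). Ezh1, its paralog that predominates in non-dividing cells, had a signal of 41.5, 43.4 and 43.2 in WT and of 60.8, 58.0 and 62.5 in Dnmt1-/- libraries. The libraries of each group lay close together, with a clear gap between the groups, and the log2 fold change was 0.50 (SE 0.05, adjusted p = 1.5e-08). Eed, the subunit that binds H3K27me3 and stimulates the enzyme, went the other way. Its signal was 304, 291 and 306 in WT and 276, 266 and 255 in Dnmt1-/- libraries. The groups did not overlap, although the gap between them was narrower than the spread of the Dnmt1-/- libraries, and the log2 fold change was −0.18 (SE 0.05, adjusted p = 0.0024).

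Both PRC2 accessory subunits rose. Jarid2 marks the form of PRC2 that binds ubiquitinated H2A, and its signal was 977, 913 and 1112 in WT and 1209.7, 1229 and 1354 in Dnmt1-/- libraries. Replicate 3 was the highest library of each group, and the groups did not overlap. The log2 fold change was 0.34 (SE 0.07, adjusted p = 8.4e-05 by limma). Mtf2 belongs to the Polycomb-like proteins, which bring PRC2 to unmethylated CpG-rich DNA, and had a signal of 258, 237 and 264 in WT and of 348, 336 and 321 in Dnmt1-/- libraries. All Dnmt1-/- libraries lay above all WT libraries, and the log2 fold change was 0.41 (SE 0.05, adjusted p = 2.2e-07).

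Of the PRC1 ligases 1 rose and 1 did not pass the test. Rnf2, which carries most H2A ubiquitination in ES cells, had a signal of 135, 119 and 133 in WT and of 165, 160.5 and 162 in Dnmt1-/- libraries. The Dnmt1-/- libraries were nearly level and all above WT, and the log2 fold change was 0.33 (SE 0.05, adjusted p = 4.8e-06 by limma). Ring1, its paralog, had a signal of 19.6, 23.0 and 19.1 in WT and of 20.8, 19.5 and 19.3 in Dnmt1-/- libraries. The groups overlapped, with WT replicate 2 the highest of all. The log2 fold change was −0.05 (SE 0.08, adjusted p = 0.59), its 95% interval ran from −0.20 to 0.11, and without WT replicate 2 the value was 0.034. Ring1 was also the subunit with the fewest reads, 525 to 886 per library, against 29819 to 37388 for Jarid2.

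The PRC1 accessory subunits moved in opposite directions. Kdm2b, whose product binds unmethylated CpG through a CXXC domain and brings the PRC1.1 form to CpG islands, had a signal of 116, 132 and 123 in WT and of 102, 102 and 104 in Dnmt1-/- libraries. The WT libraries were spread more widely than the Dnmt1-/- libraries and all lay above them, and the log2 fold change was −0.26 (SE 0.05, adjusted p = 0.0001 by limma). Pcgf6, the subunit that defines the PRC1.6 form and the silencing of germline genes, had a signal of 43.7, 39.5 and 40.9 in WT and of 54.6, 51.3 and 52.8 in Dnmt1-/- libraries. The groups did not overlap, and the log2 fold change was 0.35 (SE 0.06, adjusted p = 5.6e-06).

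In sum over the 10 subunits, all of which passed the filter on low values, 9 were called, 7 of them higher and 2 lower. Among all 17297 genes tested 71.2% were called, 35.8% higher and 35.4% lower. A call is therefore common in this comparison, and 9 of 10 is read against that share. The groups did not overlap for 9 of the 10 subunits and for 73.3% of all genes. The median log2 fold change of the subunits was 0.34, beside 0.01 over all genes, and only Suz12 changed by more than 1.5-fold.

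**Figure D2:**
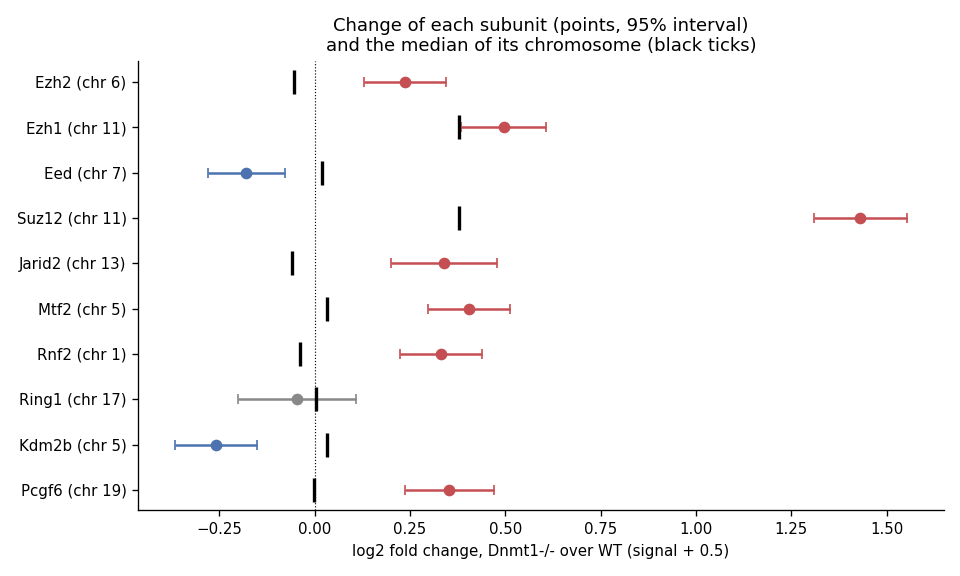
Log2 fold change of each subunit, Dnmt1-/- over WT, with its 95% interval (red higher, blue lower, grey not called), and the median of the genes on its chromosome as a black tick. Suz12 lies at 1.43 and the chromosome 11 tick at 0.38, which the interval of Ezh1 nearly reaches.

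Genes of 1 chromosome moved together where Suz12 and Ezh1 lie. Both are on chromosome 11 (GENCODE vM21 on GRCm38), Suz12 at chr11:79993106-80034123 on the plus strand and Ezh1 at chr11:101191115-101226463 on the minus strand. The median log2 fold change of the 1198 genes tested on chromosome 11 was 0.38, and 64.9% of them were called higher. Relative to that median, a value chosen after seeing the data, Suz12 was at 1.05 and Ezh1 at 0.12. The 10 genes nearest to Suz12, 5 on each side, all had log2 fold changes above 0, from 0.14 to 1.12, and those nearest to Ezh1 ranged from −0.92 to 0.99. Suz12 thus exceeded each of its neighbours. Neighbours of other subunits moved as well, since 9 of the 10 nearest to Eed were below 0, with a median of −0.58, and 9 of the 10 nearest to Mtf2 were above 0, with a median of 0.34. The other subunits lie on 7 chromosomes. Ezh2 is at chr6:47530139-47595341, Eed at chr7:89954654-89980983 and Rnf2 at chr1:151458004-151500955, all on the minus strand. Jarid2 at chr13:44729474-44921643 and Mtf2 at chr5:108065674-108109004 are on the plus strand. Kdm2b at chr5:122870665-122989823, Ring1 at chr17:34020792-34024680 and Pcgf6 at chr19:47033617-47050906 are on the minus strand. The chromosomes of these 8 subunits had medians between −0.06 and 0.03, and relative to these Jarid2 was at 0.40, Mtf2 and Rnf2 at 0.37, Pcgf6 at 0.35, Ezh2 at 0.29, Eed at −0.20 and Kdm2b at −0.29. Between 0 and 8.74% of the exon bases of a subunit are shared with another annotated gene, most for Kdm2b. The part of a chromosome-wide difference between the lines in the values of Suz12 and Ezh1 was not tested.

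Levels were set side by side per kilobase of merged exons, since longer transcripts give more reads. In the replicates Jarid2 was the most abundant subunit in both groups, at 103 ± 10.4 normalized signal per kb in WT and 130.1 ± 8.07 in Dnmt1-/- libraries (SD, n = 3). In WT it was followed by Eed at 78.5 ± 2.08, Mtf2 at 44.4 ± 2.48, Suz12 at 31.9 ± 3.43 and Rnf2 at 31.3 ± 2.16. Suz12 and Rnf2 overlapped in WT, and all other neighbours in the order were separated in every library. Ezh2 at 19.4 ± 1.09, Kdm2b at 11.4 ± 0.74, Pcgf6 at 8.22 ± 0.42, Ring1 at 6.35 ± 0.65 and Ezh1 at 5.74 ± 0.14 made up the lower part of the WT order. In Dnmt1-/- libraries Suz12 stood at 85.8 ± 1.51, the second place, ahead of Eed at 69.4 ± 2.75 and Mtf2 at 58.8 ± 2.34. Pcgf6 at 10.5 ± 0.33 passed Kdm2b at 9.48 ± 0.12, and Ezh1 at 8.12 ± 0.30 passed Ring1 at 6.13 ± 0.25. In these libraries no pair of neighbours overlapped. The single libraries gave another order, with Suz12 first in WT, Dnmt1-/- and dCas9-OGA-D242A, at 79.5, 135 and 89.4 cpm per kb against 69.8, 73.4 and 50.5 for Jarid2, and with Rnf2 first in dCas9-OGA at 60.9.

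**Figure D3:**
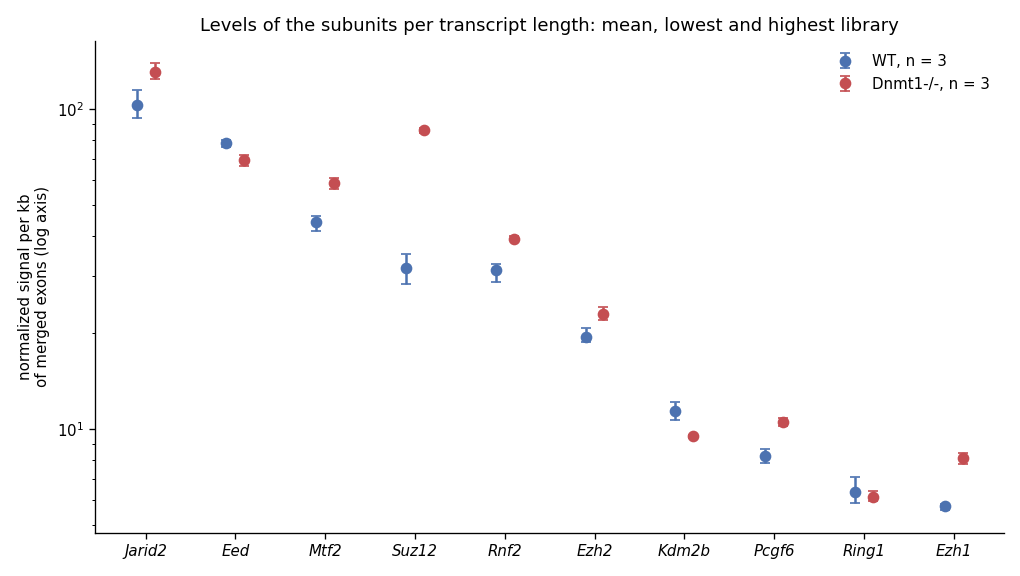
Normalized signal per kb of merged exons on a log axis for each subunit, ordered by its WT mean, with the mean as a point and the lowest and highest library as bars (WT blue, Dnmt1-/- red, n = 3 each). Jarid2 is at the top in both groups, and Suz12 moves from 31.9 to 85.8.

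Each enzyme has a paralog, and the balance within each pair was taken per kb in each library. The ratio of Ezh1 to Ezh2 was 0.30, 0.31 and 0.28 in WT and 0.36, 0.36 and 0.35 in Dnmt1-/- libraries. All Dnmt1-/- ratios lay above all WT ratios, a difference of 0.26 on the log2 scale. Relative to the medians of their chromosomes, the log2 fold change was lower for Ezh1, at 0.12, than for Ezh2, at 0.29, and the part of the chromosomes in the ratio was not tested. The ratio of Ring1 to Rnf2 was 0.18, 0.25 and 0.18 in WT and 0.16, 0.15 and 0.15 in Dnmt1-/- libraries, a difference of −0.38 on the log2 scale, with all Dnmt1-/- ratios below all WT ratios. That difference depended on WT replicate 2, without which it was −0.24, and it was −0.45 without WT replicate 3. The exact two-sided permutation test gave p = 0.1 for both ratios, the smallest p that 3 against 3 libraries allow.

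The remaining PRC2 subunits, 9 by name, were all called, 6 higher and 3 lower, beside 71.2% of all genes called, with a median log2 fold change of 0.16. Over the left-out libraries 5 to 6 were called higher and 2 to 3 lower. Ezhip, an inhibitor of the EZH2 enzyme known from germ cells, had the largest change. Its signal was 21.7, 21.9 and 24.2 in WT and 132, 129 and 136 in Dnmt1-/- libraries, so that the groups were far apart. The log2 fold change was 2.52 (SE 0.06, adjusted p = 1.5e-21 by limma). Epop, a partner of the Polycomb-like form of PRC2, rose by 0.78 on the log2 scale, from 327 ± 10.7 in WT to 560.2 ± 16.6 in Dnmt1-/- libraries (SD, n = 3). Of the Polycomb-like paralogs of Mtf2, Phf19 rose by 0.62 and Phf1 had a log2 fold change of −0.38. Rbbp4 and Rbbp7, the histone-binding subunits of the core, and Lcor were called higher, and Aebp2 and Lcorl were called lower.

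Of 31 further PRC1 subunits 29 were tested, of which 13 were called higher, 9 lower and 7 were not called, with a median of 0.05, a number of calls near the 71.2% over all genes. Scml2, a germline-enriched Polycomb protein, had a signal between 4.49 and 4.78 in WT and between 91.6 and 100.6 in Dnmt1-/- libraries. That is a log2 fold change of 4.23 (SE 0.07, adjusted p = 3.7e-24 by limma), with no overlap between the groups. Cbx2, a reader of H3K27me3 in canonical PRC1, rose by 1.09, and Bcorl1 of the PRC1.1 form rose by 0.96. Bmi1, the PCGF4 subunit of canonical PRC1, had a log2 fold change of −0.83, and its signal was 33.4 to 38.3 in WT and at most 20.7 in Dnmt1-/- libraries. Cbx6 and Skp1 were not among the genes tested.

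**Figure D4:**
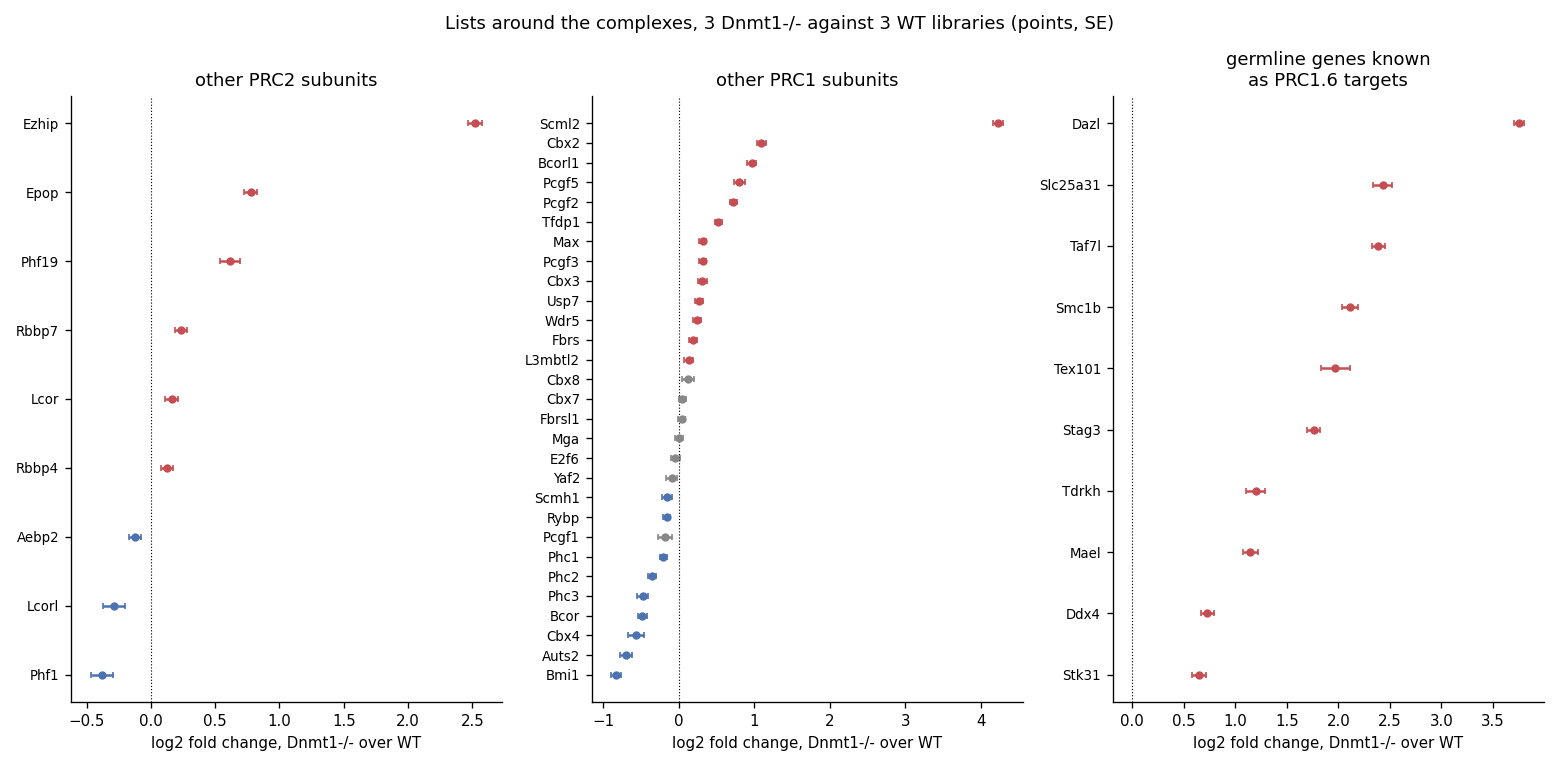
Log2 fold change with its SE, Dnmt1-/- over WT, for other PRC2 subunits, other PRC1 subunits and germline genes known as PRC1.6 targets (red higher, blue lower, grey not called). Ezhip at 2.52 and Scml2 at 4.23 stand apart from the rest of their panels, and all 10 germline genes lie above 0.

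Enzymes that undo Polycomb marks, with their cofactors, and genes known as Polycomb targets were counted beside the subunits. The first list held 7 genes, H3K27 demethylases, H2A deubiquitinases and the BAP1 cofactors Asxl1, Asxl2 and Asxl3. Of these 7 genes 2 were called higher and 4 lower, beside 35.8% and 35.4% of all genes. Asxl3, a cofactor of the deubiquitinase BAP1, had a log2 fold change of −1.32, Usp16 of 0.52, Kdm6a, an H3K27 demethylase, of −0.51, and Asxl2 of −0.32. In the single Dnmt1-/- and WT pair Asxl2 at 0.58 and Kdm6a at 0.09 had the opposite sign, and Usp16 was at 1.83. The fusions were also above that WT library. In dCas9-OGA-D242A Usp16 was at 1.15, Asxl2 at 0.72 and Kdm6a at 0.06, and in dCas9-OGA they were at 1.34, 0.98 and 0.14. Of 30 developmental regulators known to carry H3K27me3 in ES cells 23 were tested, and 6 were called higher and 10 lower, beside the same shares of all genes, with a median of −0.22. Hand1 had a log2 fold change of 3.03, Wnt6 of 1.28, Dlx2 of −1.57 and Cdkn2a of −1.44. Hand1 stood at 0.62 to 0.79 in WT and 8.94 to 9.91 in Dnmt1-/- libraries. The single Dnmt1-/- and WT pair gave the opposite sign for Hand1 at −2.50, Wnt6 at −1.68 and Cdkn2a at 0.56. Of 13 of these regulators compared there 1 was past 1.5-fold above WT and 11 below, beside 19.7% and 17.9% of all genes, with a median log2 ratio of −1.50. Against the same WT library, dCas9-OGA-D242A had 1 of 13 above and 9 below, beside 23.7% and 19.7% of all genes, with a median of −1.43. For dCas9-OGA it was 1 of 11 above and 7 below, beside 24.5% and 21.7% of all genes, with a median of −0.87.

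Germline genes known as targets of the PRC1.6 form, to which Pcgf6 belongs, gave a different count. The list was chosen with earlier results of these data known, so its count is not an independent result. Of 12 listed, 10 were tested, and these were all called higher, with a median log2 fold change of 1.87, beside 35.8% of all genes called higher. The single pair of Dnmt1-/- and WT libraries did not show this, since 5 of its 12 compared were past 1.5-fold above WT and 1 below, beside 19.7% and 17.9% of all genes, with a median log2 ratio of 0.12. Dazl, an RNA-binding protein of germ cells, had a signal of 24.5, 22.0 and 23.9 in WT and 321, 316 and 331 in Dnmt1-/- libraries. The groups lay far apart, with a log2 fold change of 3.75 (SE 0.05, adjusted p = 2.2e-25 by limma). Slc25a31 rose by 2.43, Taf7l by 2.39 and Smc1b, a meiotic cohesin subunit, by 2.12. In the single pair Dazl was at 1.48 and Smc1b at 4.73, but Slc25a31 was at −0.29 and Taf7l at −0.36. Smc1b had only 19 counts in the single WT library, and dCas9-OGA-D242A at 3.11 and dCas9-OGA at 2.58 were also above that library. For Dazl these fusions were below it, at −2.29 and −1.45. Of 10 proliferation genes 5 were called higher and 4 lower, beside 35.8% and 35.4% of all genes, among them Top2a at 0.86, Ccnb1 at 0.65, Ccna2 at 0.59 and Mcm2 at −0.41. The number higher was 4 with edgeR, DESeq2, TMM scaling or no filter, and when any 1 of 4 of the 6 libraries was left out.

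The 3 genes outside the list whose profile over the 6 libraries was most like that of Suz12, by the Euclidean distance between centred log2(signal + 0.5) values among 17287 genes, were Alg6, Sec1 and Pramel7. Alg6, a glucosyltransferase of N-glycan assembly, was at a distance of 0.14 and had a signal of 8.68, 8.23 and 9.20 in WT and of 25.0, 24.6 and 26.1 in Dnmt1-/- libraries. Sec1 was at 0.14 and Pramel7 at 0.15. All 3 had WT replicate 2 as their lowest library, as Suz12 did, which their choice by likeness of profile favours. Pramel7 belongs to a multigene family, so its reads are uncertain.

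The active and the inactive fusion differed in both directions among the subunits. With 1 library each there is no replicate check and no test, so a gene is described as past the fold where it differed by at least 1.5-fold on the log2(cpm + 0.5) scale, and the 95% intervals cover counting error only. By that rule Eed, Rnf2 and Ring1 were higher and Ezh1 and Suz12 lower in dCas9-OGA, 3 and 2 of 10 subunits. Among the 12722 genes with at least 100 counts over both libraries, 13.2% were higher and 15.2% lower. Of 7 ES cell markers 3 were higher and 0 lower, and of 11 PRC1.6 germline targets compared 6 were higher and 0 lower. The part of such differences between the libraries in the values of the subunits was not tested. Ezh1 stood at 36.4 cpm with dCas9-OGA and 89.8 cpm with dCas9-OGA-D242A, a log2 ratio of −1.29 (interval −1.42 to −1.19). Suz12 stood at 234 against 442 cpm, a log2 ratio of −0.91 (interval −0.96 to −0.87). Both were thus lower with the active enzyme, and so were most genes of their chromosome.

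The median log2 ratio of the 1006 genes compared on chromosome 11 was −0.46, and relative to it Ezh1 was at −0.84 and Suz12 at −0.46, within the fold. Of the 10 nearest genes 8 were below 0 around each of them. Rnf2 lies on chromosome 1, whose median was 0.40. It stood at 251 against 144 cpm, a log2 ratio of 0.80, which became 0.41 relative to the chromosome, and all 10 of its nearest genes were above 0. Relative to the chromosome medians 3 subunits remained past the fold, Eed and Ring1 higher and Ezh1 lower. The part of these chromosome-wide differences between the libraries in the values of the subunits was not tested.

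Eed stood at 175 cpm with dCas9-OGA and 100.3 cpm with dCas9-OGA-D242A, a log2 ratio of 0.80 on a chromosome with a median of 0.07. Ring1 stood at 12.1 against 6.08 cpm, from 301 and 151 counts, and its log2 ratio of 0.94 had the widest interval, 0.72 to 1.28. Ezh2 stood at 186 against 128 cpm, a log2 ratio of 0.54, just inside the fold. Jarid2, Mtf2, Kdm2b and Pcgf6 had log2 ratios of 0.12, 0.30, 0.23 and 0.05. The ratio of Ezh1 to Ezh2 per kb was 0.18 with dCas9-OGA and 0.63 with dCas9-OGA-D242A, and 0.32 in the single WT library, so that both fusions lay outside the WT value on opposite sides. For scale, pairs of replicate libraries of 1 group had between 0.14% and 0.57% of genes past the same fold, and the largest log2 difference of any subunit within a group was 0.30, for Suz12 between WT replicates 2 and 3.

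**Figure D5:**
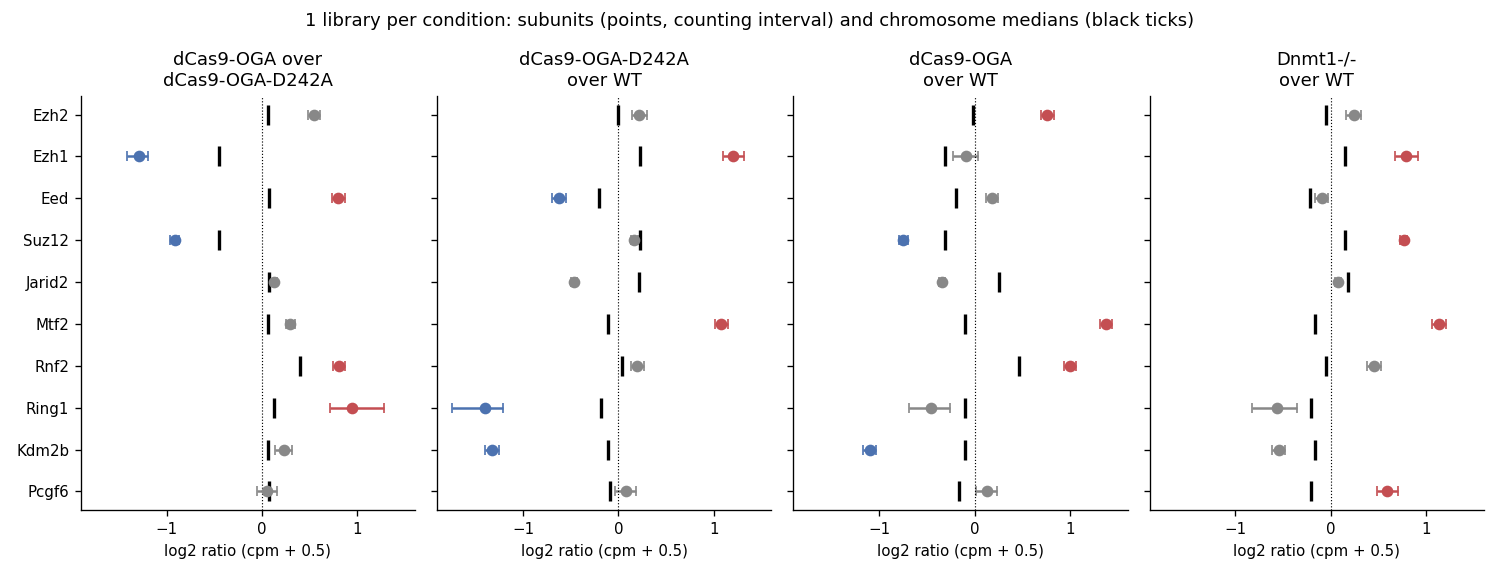
Log2 ratio of each subunit between single libraries in 4 comparisons, with the 95% counting interval (red at least 1.5-fold higher, blue at least 1.5-fold lower, grey neither) and the median of its chromosome as a black tick. Ezh1 lies at −1.29 in the first panel and at 1.20 in the second, and Mtf2 lies between 1.08 and 1.38 in the 3 panels set against WT.

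The single WT library is shared by the next comparisons, so their values are given side by side. In dCas9-OGA-D242A, Ezh1 and Mtf2 were past the fold above WT and Eed, Ring1 and Kdm2b below it, 2 and 3 of 10 subunits, beside 23.7% and 19.7% of 12933 genes. In dCas9-OGA, Ezh2, Mtf2 and Rnf2 were above and Suz12 and Kdm2b below, 3 and 2 subunits, beside 24.5% and 21.7% of 12746 genes. The shares over all genes are large, and the subunits' counts are near them. Mtf2 stood at 106 cpm in WT, 225 cpm in dCas9-OGA-D242A and 276 cpm in dCas9-OGA, with log2 ratios to WT of 1.08 and 1.38. Kdm2b stood at 197 cpm in WT, 78.7 cpm in dCas9-OGA-D242A and 92.1 cpm in dCas9-OGA, with log2 ratios of −1.32 and −1.10. The single WT library lay apart here, since the single Dnmt1-/- library stood at 233 cpm for Mtf2 and 135 cpm for Kdm2b, so that WT was the lowest of the 4 libraries for Mtf2 and the highest for Kdm2b. It lay apart for other genes as well, such as Top2a at 135 cpm in WT against 892 to 1115 cpm in the other single libraries, and the part of this in the ratios to WT was not tested. Mtf2 and Kdm2b were the subunits in which both fusion libraries lay on the same side of WT past the fold, with log2 ratios relative to chromosome 5 of 1.18 and 1.48 for Mtf2. For Kdm2b the value relative to chromosome 5 was −1.22 in dCas9-OGA-D242A and −0.996 in dCas9-OGA. Relative to the chromosome medians Eed came inside the fold in dCas9-OGA-D242A at −0.41, as did Rnf2 at 0.54 and Suz12 at −0.44 in dCas9-OGA, while Jarid2 passed it below WT in both, at −0.68 and −0.60.

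Other subunits separated the fusions. Ezh1 stood at 38.9 cpm in WT, near the 36.4 cpm of dCas9-OGA, so that the dCas9-OGA-D242A library was the one that lay apart, at a log2 ratio of 1.20 to WT. Suz12 stood at 393 cpm in WT, near the 442 cpm of dCas9-OGA-D242A, and dCas9-OGA lay below WT at a log2 ratio of −0.75. Eed stood at 154 cpm in WT and had log2 ratios of −0.62 in dCas9-OGA-D242A and 0.18 in dCas9-OGA. Ring1 fell between the extremes in dCas9-OGA, with 16.9 cpm in WT and log2 ratios of −1.40 in dCas9-OGA-D242A and −0.46 in dCas9-OGA. Jarid2 had log2 ratios of −0.47 and −0.34, and Pcgf6 of 0.08 and 0.13, in dCas9-OGA-D242A and dCas9-OGA.

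Of the other PRC2 subunits, Ezhip was past the fold above with the active fusion, with a log2 ratio of 1.01 from 580 and 282 counts, and Phf19 was past it below at −0.63. Against WT, Ezhip was at −2.29 in dCas9-OGA-D242A and −1.28 in dCas9-OGA. Of 29 other PRC1 subunits compared, Cbx6 and Wdr5 were past the fold above, at 0.76 and 0.75, and 8 were past it below, beside 13.2% and 15.2% of all genes. Auts2 was the lowest of these at −1.28, followed by Skp1 at −0.95, Scml2 at −0.94, Phc1 at −0.83, Bcor at −0.82, Pcgf5 at −0.71, Scmh1 at −0.67 and Yaf2 at −0.59. Auts2 and Pcgf5 belong to noncanonical PRC1, and Phc1 and Scmh1 to canonical PRC1.

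The single Dnmt1-/- and WT libraries give a second, unreplicated pair of these genotypes, normalized apart from the replicates. Ezh1, Suz12, Mtf2 and Pcgf6 were past the fold above WT and no subunit was past it below, 4 and 0 of 10, beside 19.7% and 17.9% of 12593 genes. Suz12 stood at 668 against 393 cpm, a log2 ratio of 0.76 (interval 0.73 to 0.80), and at 0.61 relative to chromosome 11, whose median was 0.15. In the replicates its log2 fold change was 1.43. Mtf2 stood at 233 against 106 cpm, a log2 ratio of 1.13 where the replicates gave 0.41. Ezh1 had a log2 ratio of 0.79 and Pcgf6 of 0.59, the latter at the edge of the fold. Ezh2 was at 0.24, Rnf2 at 0.45, Jarid2 at 0.07, Eed at −0.10, Kdm2b at −0.54 and Ring1 at −0.57. Ezhip, which had the largest PRC2 change in the replicates, was at −0.64 in the single pair. Epop at −0.82, Bcorl1 at −0.69, Cbx2 at −0.36 and Bmi1 at 0.17 also had the sign opposite to that in the replicates, whereas Scml2 was at 3.19 and Phf19 at 0.95.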

How the data were processed

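Total RNA of mouse ES cells was sequenced by the authors as single-end poly(A) libraries. Per the labels and methods, reads were aligned to mm10 with HISAT2 2.1.0 (replicates) and counted on Ensembl 87 genes with featureCounts 1.5.0 after removal of rRNA reads. TopHat2 2.0.11 is listed for the fusion libraries, and the kit is given as stranded in one source and not in another. The strand setting of the counting is not given in the sources used here, so reads of antisense genes cannot be told apart. For the single libraries the authors deposited raw counts per gene. For the replicates the deposited values are a normalized signal, each count having been divided by a scaled size of its library. The headers of these files are out of step with their columns, and values were read by column position. Whole reads were recovered for 100% of values at a tolerance of 0.1 reads.

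Replicates were tested with limma 3.58.1 (trend) on log2(signal + 0.5) for genes that passed edgeR's filterByExpr on the recovered reads, with Benjamini-Hochberg adjustment at 0.05. Fold changes understate those of low genes. DESeq2 1.42.0 and the quasi-likelihood test of edgeR 4.0.16 on recovered reads were alternatives, and the fits were tested on simulated data. TMM factors from edgeR scaled the single libraries, which were compared as log2(cpm + 0.5) without a test, among genes with at least 100 counts over both. Depth limits these values through counting error, shown as 95% intervals. Each sample's group came from its labels, and replicate numbers were not taken as pairs. The counts of the fusion libraries were the same in their own files and in the joint table, in 49671 of 49671 rows. Positions used GENCODE vM21, which matched 26679 of 26797 and 49326 of 49671 genes.

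Named genes were the 10 subunits in every comparison, Dnmt1, from each list up to 4 called genes with the largest change, other subunits past 1.5-fold between the fusions, and the 3 genes most like the subunit with the largest change. Other genes of the lists are named with no value. The members and lists were chosen with earlier results of these data known. The ChIP-seq samples were not analysed here. Figures used matplotlib 3.10.9, and the work ran in Python 3.11.15 (SciPy 1.17.1, NumPy 2.4.6, pandas 2.3.3) and R 4.3.3.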

Additional observations from a re-analysis of the deposited data

How the results depend on the processing

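The test, scaling, pseudocount, filter, replicate block and each left-out library were varied, 13 alternatives in all, and 129 of the 130 values of the subunits recomputed with a test kept their direction and their side of the threshold. The exception was Ring1, which is not called, and whose log2 fold change ranged from −0.097 to 0.034 over the left-out libraries, with the value above 0 without WT replicate 2. The number of subunits called was 9 in each of these alternatives, 7 higher and 2 lower. The replicate block gave 9 as well, and changed no other call of a subunit. The correlations of same-numbered libraries were 0.07, −0.02 and 0.07, so the numbers were not taken to pair them. Between dCas9-OGA and dCas9-OGA-D242A, values relative to the chromosome median left 3 subunits past the fold in place of 5, and 1 lower in place of 2. DESeq2 size factors gave 6. Relative to the chromosome median, chosen after seeing the data for the other comparisons, dCas9-OGA against WT gave 4 in place of 5, without Rnf2 and Suz12 and with Jarid2, and dCas9-OGA-D242A against WT gave 5 as before, but with Jarid2 in place of Eed. A pseudocount of 5 cpm gave 3 in place of 4 for the single Dnmt1-/- against WT. Single libraries have no replicate check, and their intervals hold counting error only. Among the 10 subunits the fewest counts behind a compared value were those of Ring1 in dCas9-OGA-D242A, at 151, and Scml2, outside them, rested on 39 and 86 counts between the fusions.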
